A study of Rattus norvegicus with 172 samples.

Results

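The genes described here are 6 genes of the oligodendrocyte lineage, Pdgfra, Olig1, Olig2, Sox10, Nkx2-2 and Gpr17, taken as the probe sets that the array annotation assigns to those symbols. Of the 6, 5 have a probe set, out of 14218 genes represented on the array, and Gpr17 is not listed by the annotation used here. Pdgfra (probe set 1370941_at), Olig1 (1387200_at), Sox10 (1368439_at) and Nkx2-2 (1385387_at) have 1 probe set each, and Olig2 has 2, of which the brighter (1379593_at) stands for the gene. The 2 Olig2 probe sets averaged 5.49 and 4.94 on the log2 scale over the cord arrays, below the brightness of 6.55 at which genes were tested, so 4 members were tested and Olig2 is given as values. The 4 tested members also passed that level in normal cord, where they averaged 10.96 (Pdgfra), 12.32 (Olig1), 9.75 (Sox10) and 9.80 (Nkx2-2).

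The study followed female Wistar rats, 2 months old, whose spinal cord was cut at the thoracic level T7-8 with removal of a 5 mm piece. In 1 arm the gap was bridged by a chitosan tube seeded with chitosan carriers of neurotrophin-3, a neuronal growth factor (NT-3 tube). In another the tube was implanted empty (tube alone), in the last no implant was placed (lesion control), and T7-8 cord of uninjured rats (normal cord) was set beside them. Segments of 5 mm rostral to the gap, caudal to it and at the lesion itself, dissected with dura and meninges, were profiled on days 1, 3, 10, 20, 30, 60 and 90, the lesion segment from day 3 on and with tube alone there on day 3 only. The 164 arrays of injured cord form 55 groups, of 3 arrays each except 1 group of 2 (tube alone, rostral, day 10), each array holding RNA pooled from 4 animals, beside 3 arrays of normal cord and 5 of a universal rat reference RNA. Over all genes, the lowest correlation between arrays of 1 group was 0.947, and the median SD within groups was 0.112 rostrally, 0.125 at the lesion, 0.118 caudally and 0.148 in normal cord.

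Oligodendrocytes, the myelin-forming cells of the central nervous system, arise from dividing precursor cells that carry the PDGF receptor alpha, Pdgfra, on their surface. The basic helix-loop-helix factors Olig1 and Olig2 and the SRY-box factor Sox10 are made by precursors and by mature oligodendrocytes, Nkx2-2 is a homeodomain factor that acts at the step to differentiation, and Gpr17 is a receptor of cells that have just left the precursor state. Pdgfra is also made by fibroblasts, among them those of the meninges and of scar tissue, and Sox10 is also made by Schwann cells, the myelinating cells of peripheral nerve. In these bulk samples fewer cells of a type and less RNA per cell cannot be told apart.

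Upstream sequence is shown for Pdgfra and Nkx2-2, the members that moved in opposite directions at the lesion and for which a promoter entry exists. The 250 bases before the annotated start (RefSeq, build GRCr8) lie on the minus strand at chr14:33408517-33408766 for Pdgfra and on the minus strand at chr3:155075623-155075872 for Nkx2-2. Capitals mark the E-box letters CANNTG, the core to which basic helix-loop-helix factors bind, searched on both strands.
Pdgfra: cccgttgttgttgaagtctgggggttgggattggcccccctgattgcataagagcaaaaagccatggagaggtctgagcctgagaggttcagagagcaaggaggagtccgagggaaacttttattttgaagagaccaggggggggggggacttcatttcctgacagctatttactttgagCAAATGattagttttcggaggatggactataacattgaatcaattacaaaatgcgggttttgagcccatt
Nkx2-2: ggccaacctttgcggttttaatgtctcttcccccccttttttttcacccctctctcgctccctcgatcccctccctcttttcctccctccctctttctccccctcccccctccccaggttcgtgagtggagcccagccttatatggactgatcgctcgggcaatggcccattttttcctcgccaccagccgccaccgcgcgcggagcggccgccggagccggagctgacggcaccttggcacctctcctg
The Pdgfra window held 1 match and the Nkx2-2 window 0, and 65.5% of the 33465 promoter windows of that length hold at least 1. GC content was 47.2% in the Pdgfra window and 63.2% in the Nkx2-2 window, against a median of 51.2% over all windows. A match is a description of letters and not of a binding site. Of the 6 members 4 have an entry, Olig2 and Gpr17 besides these. In the same annotation Olig1 and Olig2 are neighbours with 0 annotated genes between them.

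Values are log2 RMA values as deposited, a scale on which 1 unit is a doubling, and a difference is given with its standard error. The words rose and fell are kept for limma p-values under 0.05 after Benjamini-Hochberg adjustment over all genes tested in that comparison, here termed called. With 3 arrays a group, pools of animals are the replicates, and the p-values rest on the spread between arrays within groups. That spread is estimated per gene over all groups of a fit. The number of animals per normal cord array is not listed here. The median SD was 0.117 among the reference RNA arrays, which are technical repeats, and 24 injured groups lay below it. The lesion segment of lesion control on day 90 had 0.085. Whether arrays of a group carry the full spread between animals was not tested.

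**Figure D1:**
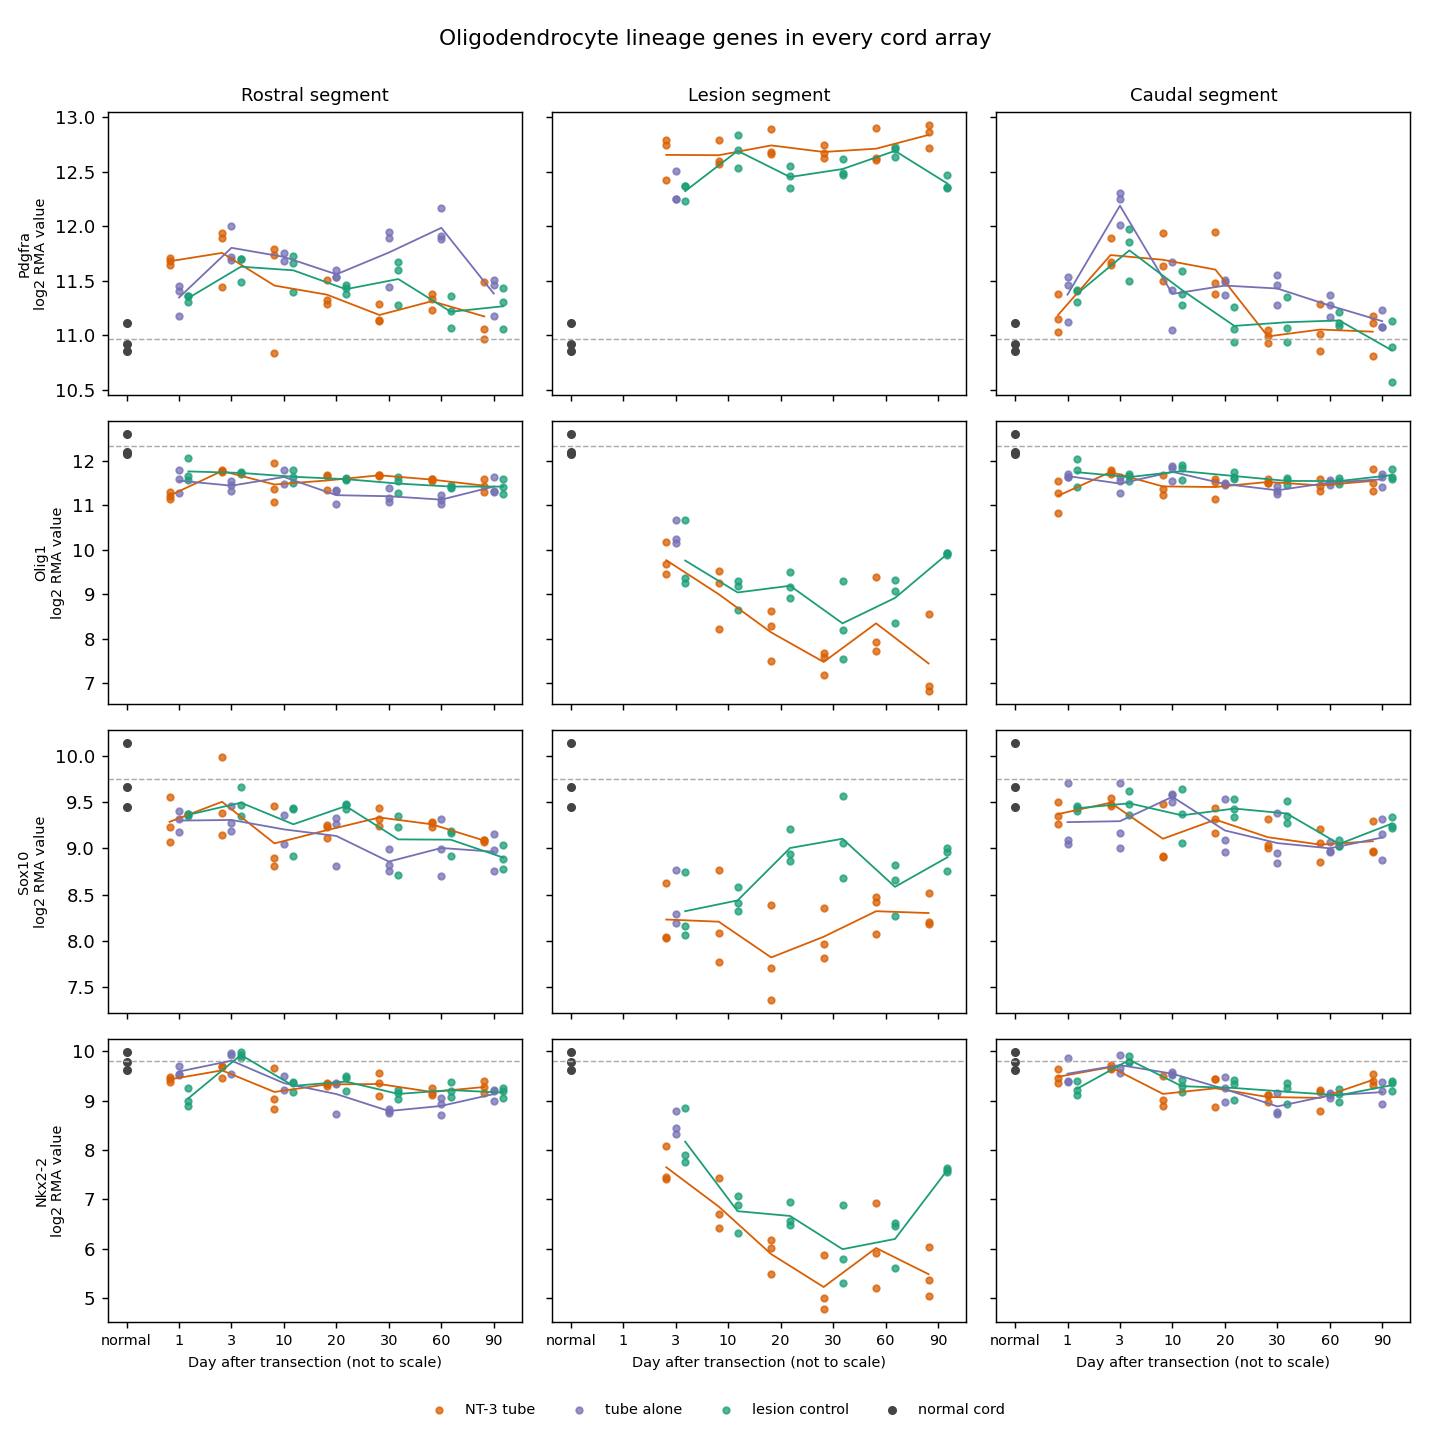
Log2 RMA value (y axis) of the 4 tested members in every cord array, by day after transection (x axis, not to scale) in the rostral, lesion and caudal segments, with points for arrays, lines for group means, a dashed line for the normal mean and colours for NT-3 tube, tube alone, lesion control and normal cord. Pdgfra lies above normal cord on all lesion arrays, while Olig1 and Nkx2-2 lie far below it there and closer to it in the flanking segments. There the Nkx2-2 group means on day 3 lie between 9.61 and 9.93, near the normal mean of 9.80.

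At the lesion, Pdgfra rose and the 3 transcription factors Olig1, Nkx2-2 and Sox10 fell on all 6 days sampled in lesion control. That makes 24 calls for 4 members on 6 days, where the share of all tested genes called was 77.1% on day 3, 74.7% on day 10, 70.9% on day 20, 74.9% on day 30, 71.2% on day 60 and 65.2% on day 90. Most tested genes differed from normal cord in this segment, so the count by itself does not set the members apart, and the sizes and directions are given below.

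Pdgfra, the receptor for the precursor mitogen PDGF-A, read 12.37, 12.23 and 12.37 on day 3, 12.84, 12.54 and 12.70 on day 10, and 12.55, 12.35 and 12.46 on day 20 in the lesion segment of lesion control, against 10.92, 11.11 and 10.86 in normal cord. It read 12.47, 12.62 and 12.49 on day 30, 12.71, 12.64 and 12.73 on day 60, and 12.35, 12.47 and 12.36 on day 90. All 18 arrays lay above all 3 normal arrays. The difference was 1.36 ± 0.10 on day 3 (adjusted p = 1.21e-13), was 1.73 ± 0.10 on days 10 and 60 alike, and was 1.43 ± 0.10 on day 90, which are 2.57-, 3.32- and 2.69-fold.

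Olig1, a factor of the whole lineage, read 10.67, 9.25 and 9.36 on day 3, 9.29, 8.65 and 9.19 on day 10, and 9.50, 8.91 and 9.17 on day 20 in that segment, against 12.20, 12.60 and 12.16 in normal cord. It read 9.30, 7.56 and 8.19 on day 30, 9.08, 8.36 and 9.32 on day 60, and 9.92, 9.89 and 9.92 on day 90. All 18 arrays lay below normal cord, and the array with 10.67 on day 3 was the highest of them. The difference was -2.56 ± 0.45 on day 3 (adjusted p = 6.21e-06), reached -3.97 ± 0.45 on day 30 (adjusted p = 2.23e-09), a 15.7-fold lower level, and was -2.41 ± 0.45 on day 90. The day 30 group also stood apart in an MHC class I gene, RT1-CE10, which averaged 11.60 there. On the other days of this segment it averaged 7.32 to 7.85, and in normal cord 6.55. What part this has in the day 30 values of any member was not tested.

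Nkx2-2 read 8.85, 7.90 and 7.76 on day 3, 7.07, 6.32 and 6.89 on day 10, and 6.94, 6.49 and 6.56 on day 20 in lesion control, against 9.63, 9.98 and 9.79 in normal cord. It read 6.88, 5.30 and 5.79 on day 30, 6.53, 5.60 and 6.46 on day 60, and 7.64, 7.55 and 7.60 on day 90. The groups did not overlap on any day. The difference was -1.63 ± 0.38 on day 3 (adjusted p = 0.000315), was -3.81 ± 0.38 on day 30 (adjusted p = 1.76e-10), 14.0-fold lower, and was -2.20 ± 0.38 on day 90. Several of these arrays lie near or below the brightness of 6.55, where RMA compresses differences.

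Sox10, which keeps oligodendrocytes and Schwann cells in their fate, differed least of the 3 factors. It read 8.74, 8.16 and 8.06 on day 3, 8.32, 8.41 and 8.58 on day 10, 9.21, 8.94 and 8.86 on day 20 and 9.57, 9.06 and 8.68 on day 30, against 9.45, 10.14 and 9.66 in normal cord. It read 8.82, 8.27 and 8.66 on day 60 and 9.00, 8.96 and 8.75 on day 90. Of the 18 arrays 17 lay below all normal arrays, and 1 of day 30 lay among them. The difference was -1.43 ± 0.26 on day 3 (adjusted p = 8.27e-06), -0.75 ± 0.26 on day 20 and -0.65 ± 0.26 on day 30 (adjusted p = 0.0241), then -1.17 ± 0.26 on day 60 and -0.85 ± 0.26 on day 90. The call on day 30 was lost without the second lesion control array of that day (-0.625, adjusted p = 0.0558). Without the third lesion control array of that day the difference was -0.44 (adjusted p = 0.164), and without the second normal array, the highest for Sox10, it was -0.45 (adjusted p = 0.149). The call on day 20 was also lost without that normal array (-0.55, adjusted p = 0.0826), and both were lost with the level of skeletal muscle markers as a covariate, where the differences were no smaller but the standard errors larger (-0.805 ± 0.36 on day 20, adjusted p = 0.0571, and -0.69 ± 0.33 on day 30, adjusted p = 0.0613).

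Olig2 read between 4.76 and 5.63 over the 18 lesion arrays of lesion control, with a median of 5.25, against 5.49, 5.13 and 5.76 in normal cord. With dim genes kept in the fit its difference from normal cord was -0.46 ± 0.15 on day 30 (adjusted p = 0.00806), -0.38 ± 0.15 on day 60 and -0.49 ± 0.15 on day 90, and no such call was made on days 3, 10 and 20. At this brightness RMA compresses differences.

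**Figure D2:**
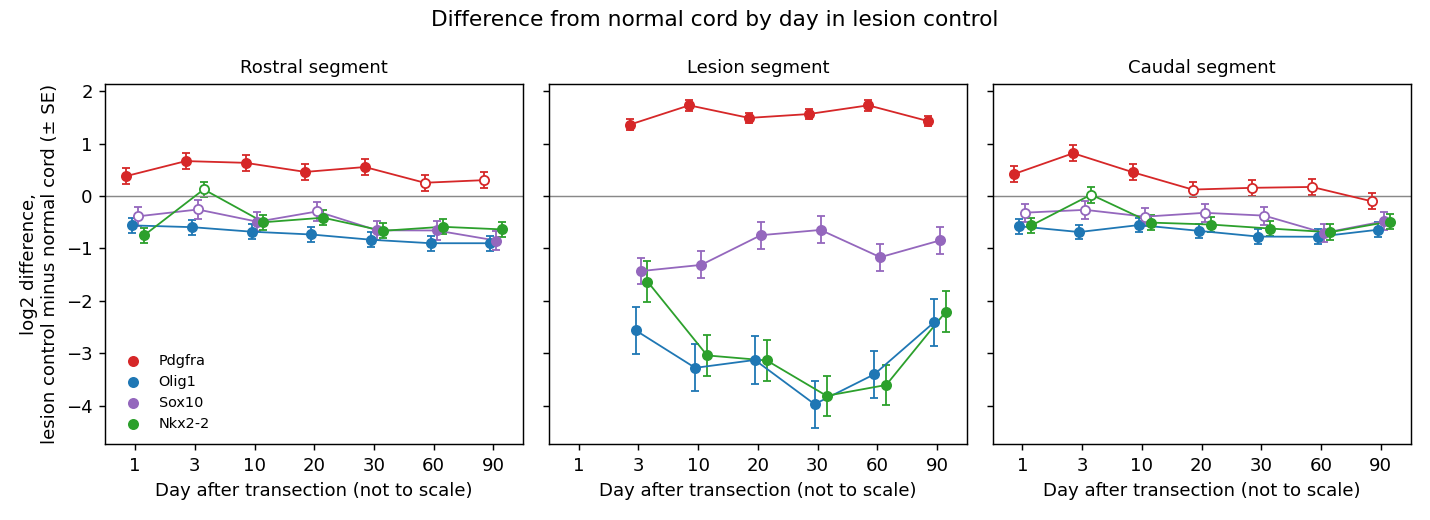
Log2 difference between lesion control and normal cord (y axis, ± SE) for Pdgfra, Olig1, Sox10 and Nkx2-2 by day after transection (x axis, not to scale) in the 3 segments, filled points passing the test and open points not. At the lesion Olig1 and Nkx2-2 reach -3.97 and -3.81 on day 30 while Pdgfra stays between 1.36 and 1.73, and in the flanking segments most differences lie within 1 unit of 0.

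Markers of other cell types moved with these values at the lesion. Of 10 fibroblast markers 9 rose and 1 fell over all days of lesion control (78.2% of all genes called), with a median of 4.31, and 2 of them averaged under 6.55 in normal cord. The collagen gene Col6a3 rose by 5.10 ± 0.12. Their mean level lay 3.03 to 4.22 above normal cord in lesion control. The mean of 6 skeletal muscle markers lay 1.11 to 6.59 above normal cord, and since 5 of the 6 averaged under 6.55 there and were tested through the groups in which they are bright, no count is read from them. Of 6 Schwann cell markers tested 5 rose, with Egr2, the myelination factor of peripheral nerve, higher by 3.24 ± 0.14. The other, Sox2, which neural cells also make, fell. In normal cord 2 of the 6 averaged under 6.55 and were tested through the groups in which they are bright. Their mean level on the array lay 0.13 to 1.85 above normal cord, where 3 normal arrays themselves spanned -0.32 to 0.42. Of 7 microglia and macrophage markers 5 rose and 1 fell, and 1 of the 7 averaged under 6.55 in normal cord. Their mean level was 0.85 to 2.51 above normal cord, with the leukocyte gene Ptprc higher by 2.77 ± 0.12. Of 7 astrocyte markers 5 fell and 1, Vim, which many cell types make, rose by 2.86 ± 0.06, their mean level lying between -1.69 and -0.08. The part of these cells in the members' values was not tested, nor was the part of fibroblasts in the Pdgfra values and of Schwann cells in the Sox10 values.

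Across the 39 lesion arrays of all arms, as a description of arrays that share groups and days, Pdgfra correlated at r = 0.40 with the fibroblast level and at r = -0.36 with the level of other precursor genes. Sox10 correlated at r = 0.65 with the Schwann cell level and at r = 0.68 with the central myelin level. Olig1 correlated at r = 0.75 with the other precursor genes and at r = 0.71 with central myelin, and Nkx2-2 at r = 0.58 and r = 0.55 with the same lists. Lists outside the lineage ran with them about as closely, neuron markers at r = 0.67 with Olig1 and 0.53 with Nkx2-2, and proliferation markers at r = 0.58 with Nkx2-2.

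**Figure D3:**
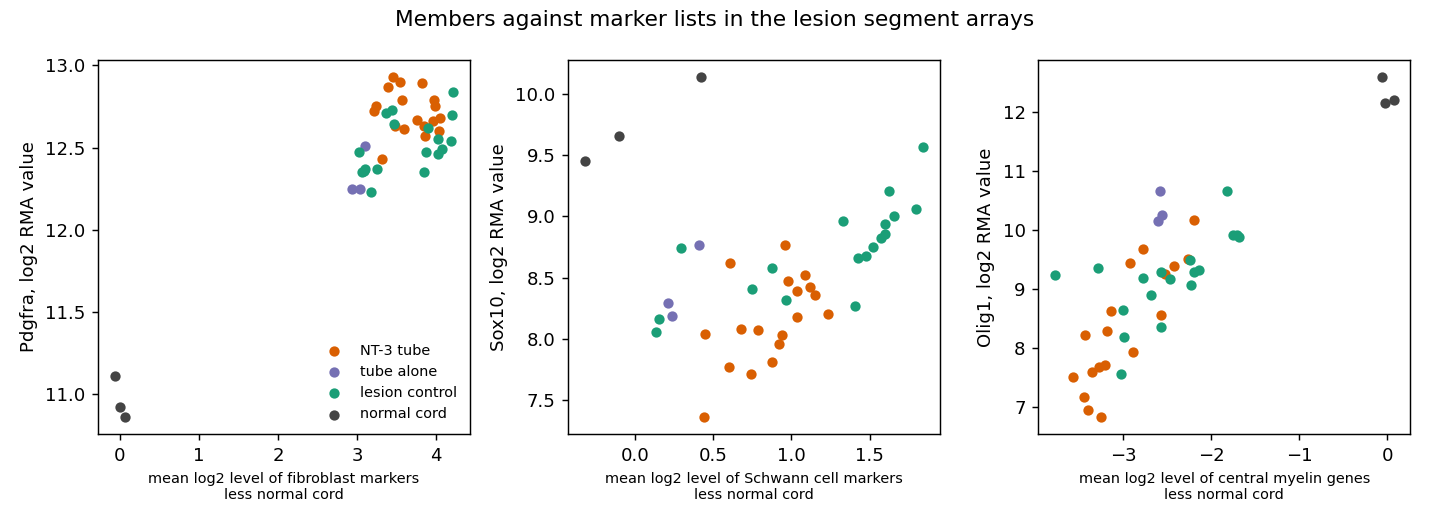
Log2 RMA value of Pdgfra, Sox10 and Olig1 (y axes) in each of the 39 lesion arrays and 3 normal arrays, against the mean log2 level of fibroblast markers, Schwann cell markers and central myelin genes less the normal mean (x axes), coloured by NT-3 tube, tube alone, lesion control and normal cord. All lesion arrays have fibroblast levels of at least 2.94 above normal cord together with Pdgfra of at least 12.23.

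Among other genes of the lineage more fell than rose, where of 11922 genes tested over all days 4959 were higher and 4361 lower. Of 11 other precursor genes tested at the lesion 7 fell and 2 rose, with a median of -0.92, against a median of 0.06 over all genes. The retinaldehyde-binding protein gene Rlbp1 fell by 3.45 ± 0.27, the proteoglycan Bcan by 1.88 ± 0.25, Lhfpl3 by 1.84 ± 0.28 and the cadherin Pcdh15 by 1.23 ± 0.15. Cspg4 (NG2), the proteoglycan classically used with Pdgfra to mark precursors and also made by pericytes, differed by 0.13 ± 0.10, which did not pass (adjusted p = 0.23).

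Among 14 other regulators of the lineage 9 fell and 2 rose, with a median of -0.89. Zfp488 fell by 2.51 ± 0.23, Nkx6-2 by 2.41 ± 0.20 and Myrf, the factor that switches on myelin genes, by 2.33 ± 0.26, while Hes1, a Notch target, rose by 2.47 ± 0.10. Of 10 genes of committed and newly formed oligodendrocytes 6 fell and 4 rose, with a median of -0.58, and Tmem163 and Enpp6 fell by 3.52 ± 0.32 and 3.10 ± 0.26. All 16 central myelin genes tested fell, with a median of -2.89, among them Ermn (-3.93 ± 0.45), Hapln2 (-3.60 ± 0.28) and Mog (-3.35 ± 0.37).

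Of 20 ligands and receptors that act on precursors 14 rose and 4 fell, with a median of 0.89, beside 78.2% of all genes called, and 5 of the 20 averaged under 6.55 in normal cord. The chemokine Cxcl12 rose by 3.46 ± 0.10, its receptor Cxcr4 by 2.39 ± 0.12, the growth factor Igf1 by 3.12 ± 0.08 and the second PDGF receptor Pdgfrb, itself a marker of fibroblasts and pericytes, by 2.72 ± 0.12. Pdgfa, the ligand of Pdgfra, fell by 0.26 ± 0.10. Of 8 proliferation markers 7 averaged under 6.55 in normal cord and were tested through the groups in which they are bright, so no count is read from them, and their mean level in lesion control lay 0.71 to 4.21 above normal cord.

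Rostral to the gap the same members moved in the same directions by less than 1 unit, except Nkx2-2 on day 3 (0.13 ± 0.14). In lesion control 22 calls were made for 4 members on 7 days, where 48.8% of all tested genes were called on day 1, 59.3% on day 3, 57.1% on day 10, 56% on day 20, 58.7% on day 30, 55.8% on day 60 and 50.9% on day 90. Olig1 fell on all 7 days and Nkx2-2 on 6. Pdgfra rose on days 1 to 30, and Sox10 fell on days 10, 30, 60 and 90. Without the second normal array the calls of Sox10 on day 10 (-0.30, adjusted p = 0.196) and Nkx2-2 on day 20 (-0.32, adjusted p = 0.0869) were lost. They were also lost without the third array of their own day (-0.32 for both, adjusted p = 0.157 for Sox10 and 0.0897 for Nkx2-2). The Pdgfra call on day 1 was lost without any 1 of the 3 arrays of that day or without the first normal array or the third (adjusted p from 0.0638 to 0.121).

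Rostral Pdgfra read 11.70, 11.70 and 11.49 on day 3 in lesion control, against 10.92, 11.11 and 10.86 in normal cord, a difference of 0.67 ± 0.16 (adjusted p = 0.000262). All 3 arrays lay above normal cord, as did 19 of the 21 rostral lesion control arrays. By day 90 it read 11.31, 11.43 and 11.06, which overlaps normal cord, and the difference of 0.30 ± 0.16 did not pass (adjusted p = 0.0999), though it did with array weights (0.39, adjusted p = 0.00036) and without the third array of that day (0.41, adjusted p = 0.0486). Day 60 passed with array weights too (adjusted p = 0.00262).

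Rostral Olig1 read 11.65, 12.07 and 11.56 on day 1 and 11.41, 11.25 and 11.60 on day 90 in lesion control, against 12.20, 12.60 and 12.16 in normal cord. All 21 rostral arrays lay below all normal arrays. The difference was -0.56 ± 0.14 on day 1 (adjusted p = 0.00118) and -0.90 ± 0.14 on days 60 and 90.

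Rostral Sox10 was -0.39 ± 0.18 from normal cord on day 1 (adjusted p = 0.0665) and -0.85 ± 0.18 on day 90 (adjusted p = 8.60e-05), with 8.88, 8.78 and 9.04 on day 90 in lesion control, against 9.45, 10.14 and 9.66 in normal cord. The day 90 arrays lay below all normal arrays.

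Rostral Nkx2-2 departed from the others on day 3. It read 8.89, 9.00 and 9.26 on day 1 and 9.92, 9.99 and 9.87 on day 3 in lesion control, against 9.63, 9.98 and 9.79 in normal cord. Day 1 lay wholly below normal cord. Day 3 overlapped it, with the array of 9.99 above all normal arrays, and the difference from normal cord was 0.13 ± 0.14 (adjusted p = 0.463). Between day 3 and day 1 Nkx2-2 rose by 0.88 ± 0.14 (adjusted p = 4.70e-06), the 1 member called in a comparison where 33.3% of genes were. From day 10 on it was lower than normal cord again, with differences of -0.66 to -0.41.

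Averaged over days 60 and 90 against days 1 and 3, rostral Olig1, Sox10 and Nkx2-2 fell further in lesion control, with differences of -0.32 ± 0.10, -0.43 ± 0.13 and -0.30 ± 0.10 (49.4% of all genes called). The Nkx2-2 call was lost without the third array of day 1 (-0.25, adjusted p = 0.0517). Pdgfra differed by -0.245 ± 0.11, which did not pass (adjusted p = 0.0604). It passed with array weights (-0.26, adjusted p = 0.00644), with only the compared groups fitted (adjusted p = 0.0173) and without any 1 of 3 single arrays (adjusted p from 0.0426 to 0.0471).

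Caudal to the gap 18 calls were made for 4 members on 7 days of lesion control, where 47.8% of all tested genes were called on day 1, 63.6% on day 3, 44.4% on day 10, 51.4% on day 20, 54.9% on day 30, 54.3% on day 60 and 39.9% on day 90. Olig1 fell on all 7 days, with differences of -0.78 to -0.55, and all 21 caudal arrays lay below all normal arrays. Nkx2-2 fell on 6 days, and Sox10 on days 60 and 90. On day 90 the calls of Sox10 (-0.29, adjusted p = 0.235) and Nkx2-2 (-0.40, adjusted p = 0.0651) were lost without the second normal array, and that of Sox10 without the first array of that day (-0.46, adjusted p = 0.0628) or with only the compared groups fitted (adjusted p = 0.0601). In turn Sox10 passed on days 10, 20 and 30 with array weights (adjusted p = 0.0431, 0.00672 and 0.00909), and on days 1, 10, 20 and 30 without the first normal array (adjusted p from 0.0155 to 0.0361).

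Caudal Pdgfra rose on days 1, 3 and 10. It read 11.31, 11.41 and 11.42 on day 1, 11.98, 11.86 and 11.50 on day 3, and 11.59, 11.38 and 11.28 on day 10 in lesion control, against 10.92, 11.11 and 10.86 in normal cord. These 9 arrays lay above normal cord. The differences were 0.42 ± 0.15, 0.82 ± 0.15 (adjusted p = 4.99e-06) and 0.45 ± 0.15, in day order. The call on day 1 was lost without the third array of that day or the third of normal cord (adjusted p = 0.0564 and 0.0712), and that on day 10 without the first array of that day (0.37, adjusted p = 0.0686). From day 20 to day 90 they lay between -0.10 and 0.17 and did not pass. The later days read lower than the early ones: Pdgfra fell by 0.58 ± 0.11 between days 60-90 and days 1-3 (49.9% of genes called), and Sox10 and Nkx2-2 fell too (-0.30 ± 0.12 and -0.32 ± 0.11). The Sox10 call was lost without any of 7 single arrays (-0.30 to -0.27, adjusted p from 0.0502 to 0.0799).

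Caudal Nkx2-2 repeated the day 3 pattern of lesion control. It read 9.21, 9.12 and 9.39 on day 1 and 9.78, 9.91 and 9.79 on day 3 in lesion control, against 9.63, 9.98 and 9.79 in normal cord. Day 1 lay below normal cord and day 3 within it. The rise between day 3 and day 1 was 0.59 ± 0.15 (adjusted p = 0.0012), and Pdgfra rose by 0.40 ± 0.15 over the same days (45.3% of genes called), a call lost without the first array of day 1 or the first or second of day 3 (0.30 to 0.365, adjusted p from 0.0753 to 0.15). The normal arrays are shared by all these comparisons with normal cord, while the comparison of day 3 with day 1 does not use them. In NT-3 tube the Nkx2-2 mean went from 9.43 on day 1 to 9.61 on day 3 rostrally and from 9.48 to 9.68 caudally. In tube alone it went from 9.59 to 9.81 and from 9.55 to 9.72. These smaller steps were not tested. On day 1 rostral lesion control (9.05) did not overlap either tube arm, with tube alone higher by 0.54. RT1-CE10 also set these day 1 groups apart, averaging 10.79 in NT-3 tube and 10.82 in tube alone, against 6.71 in lesion control. What part this has in the Nkx2-2 values was not tested.

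At the lesion, days 60 and 90 against day 3 gave a further fall of Nkx2-2 by 1.27 ± 0.33 and a rise of Pdgfra by 0.22 ± 0.09 in lesion control (67.2% of genes called). The Pdgfra call was lost without the second array of day 3 (0.17, adjusted p = 0.141) or the second of day 90 (0.20, adjusted p = 0.0551). Olig1 (-0.345 ± 0.39) and Sox10 (0.42 ± 0.22) did not pass, though Sox10 did without the first array of day 3 (0.63, adjusted p = 0.0254).

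In the flanking segments the other lists of the lineage were mixed. Of 13 other precursor genes tested rostrally 5 fell and 2 rose (63.1% of all genes called over all days), and of 12 tested caudally also 5 fell and 2 rose (60.4% of all genes called). Tmem100 rose in both, by 1.34 ± 0.14 rostrally and 1.27 ± 0.14 caudally, and Rlbp1 fell, by 0.83 ± 0.12 and 0.72 ± 0.10. Of 16 central myelin genes 13 fell rostrally and 12 caudally, with medians of -0.54 and -0.51, Fa2h, an enzyme of myelin lipid synthesis, by 1.30 ± 0.11 rostrally and 1.29 ± 0.11 caudally. Genes of committed and newly formed oligodendrocytes went both ways. Bmp4 rose by 0.88 ± 0.10 rostrally and 0.67 ± 0.13 caudally, and Rras2 by 0.51 ± 0.08 and 0.38 ± 0.09. Tmem163 (-0.89 ± 0.09 and -0.88 ± 0.10) and Enpp6 (-0.62 ± 0.13 and -0.65 ± 0.14) fell. Fibroblast markers rose here too, 9 of 10 in each segment, with mean levels of 0.78 to 2.985 above normal cord rostrally and 0.50 to 2.43 caudally in lesion control, and their part in the Pdgfra values was not tested. Microglia and macrophage markers rose in 7 of 7 cases in each segment, with median levels of 2.04 rostrally and 2.07 caudally, and neuron markers fell in 6 of 6, with median levels of -0.71 and -0.58. In normal cord 2 of the fibroblast markers and 1 of the microglia and macrophage markers averaged under 6.55. The part of the microglia and macrophage and of the neuron levels in the members' values was not tested.

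The segments were set against each other within lesion control, which does not use normal cord. Whether arrays of different segments came from the same rats is not given in the sources used here, and the fit counts them as independent. At the lesion Pdgfra was higher than rostrally by 1.07 ± 0.06 and than caudally by 1.28 ± 0.06 over days 3 to 90. Nkx2-2 was lower, with differences of -2.46 ± 0.10 from rostral and -2.43 ± 0.10 from caudal cord, as were Olig1 (-2.35 ± 0.11 and -2.44 ± 0.11) and Sox10 (-0.49 ± 0.08 and -0.60 ± 0.08). All 4 members were called in both comparisons, where 82.4% and 82.9% of all genes were.

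Between the flanking segments, rostral Pdgfra exceeded caudal Pdgfra by 0.17 ± 0.05 over days 1 to 90 of lesion control (adjusted p = 0.0372, 5.95% of genes called). That call was lost without the rostral arrays of any 1 number or the caudal arrays numbered 2 or 3 (0.14 to 0.19, adjusted p from 0.055 to 0.276). Olig1, Sox10 and Nkx2-2 differed by -0.075 ± 0.10, -0.105 ± 0.075 and -0.01 ± 0.09, which did not pass.

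The order of the members' levels is not given here, because 1 probe set cannot be set against another. Within each member, lesion arrays of lesion control spanned 12.23 to 12.84 for Pdgfra, above the rostral range of 11.06 to 11.73 and the caudal range of 10.57 to 11.98. For Olig1 they spanned 7.56 to 10.67, below the rostral range of 11.25 to 12.07 and the caudal range of 11.40 to 12.04. Nkx2-2 spanned 5.30 to 8.85, just below the rostral range of 8.89 to 9.99 and the caudal range of 8.93 to 9.91. Sox10 overlapped, with 8.06 to 9.57 at the lesion and 8.71 to 9.66 rostrally.

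**Figure D4:**
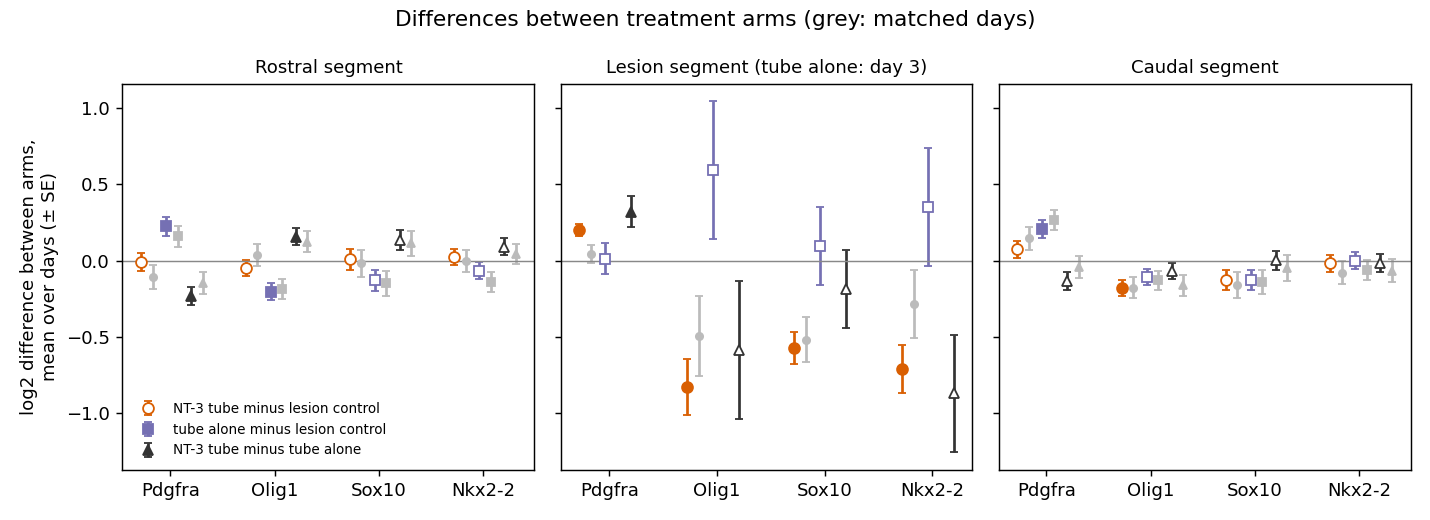
Log2 difference between arms averaged over days (y axis, ± SE) for the 4 tested members (x axis) in each segment: NT-3 tube minus lesion control (circles), tube alone minus lesion control (squares) and NT-3 tube minus tube alone (triangles), filled where the test was passed, with grey symbols for matched days only. Differences in the flanking segments lie between -0.23 and 0.26, and at the lesion NT-3 tube lies below lesion control for Olig1, Sox10 and Nkx2-2 with smaller values for Olig1 and Nkx2-2 on matched days.

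The NT-3 tube arm differed from lesion control at the lesion in all 4 members averaged over days 3 to 90, where 42% of all genes were called. Pdgfra was higher by 0.20 ± 0.04 (adjusted p = 0.000201), and Olig1, Nkx2-2 and Sox10 were lower, with differences of -0.83 ± 0.18 (adjusted p = 0.000482), -0.71 ± 0.16 (adjusted p = 0.000457) and -0.57 ± 0.10 (adjusted p = 4.99e-05). These arms share the arrays that the comparisons with normal cord used.

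The differences were not even over days. For Olig1 the NT-3 tube arrays read 10.17, 9.68 and 9.45 on day 3, against 10.67, 9.25 and 9.36 in lesion control, with overlapping groups. On day 90 they read 6.83, 6.95 and 8.57, against 9.92, 9.89 and 9.92 in lesion control, a difference of -2.46, with no overlap. Nkx2-2 on day 90 read 5.36, 5.05 and 6.04 in NT-3 tube, against 7.64, 7.55 and 7.60 in lesion control, while on day 10 the groups overlapped (7.43, 6.42 and 6.71 in NT-3 tube, against 7.07, 6.32 and 6.89 in lesion control). Sox10 was apart on day 20, with 7.36, 7.71 and 8.39 in NT-3 tube, against 9.21, 8.94 and 8.86 in lesion control, and on day 30, with 7.81, 7.96 and 8.36 in NT-3 tube, against 9.57, 9.06 and 8.68 in lesion control. Sox10 was apart on day 90 too (-0.60), as were Olig1 and Nkx2-2 on day 20 (-1.05 and -0.77). Pdgfra differed most on day 90, with 12.93, 12.87 and 12.72 in NT-3 tube, against 12.35, 12.47 and 12.36 in lesion control, and was apart on days 3, 20 and 30 as well (0.33, 0.29 and 0.16). The differences on single days were not tested, and the share of all genes whose groups were apart was not computed.

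The MHC class I gene RT1-CE10 separates some groups, at the lesion on day 90 averaging 11.45 ± 0.38 in NT-3 tube, against 7.59 ± 0.06 in lesion control (SD, n = 3 each). Within lesion control it separates day 30, averaging 10.95 rostrally, 11.60 at the lesion and 11.08 caudally. On the other days of that arm it averaged 6.71 to 7.85, against 6.55 in normal cord. Over the 3 days on which the arms' means of this gene lay within 1 unit (10, 30 and 60), 1 of the 4 calls remained. That was Sox10 (-0.52 ± 0.15, adjusted p = 0.00832), while Pdgfra differed by 0.05 ± 0.06 (adjusted p = 0.589), Olig1 by -0.49 ± 0.26 (adjusted p = 0.155) and Nkx2-2 by -0.29 ± 0.22 (adjusted p = 0.347).

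Skeletal muscle markers also had unlike levels in these arms. Their mean level over normal cord was -0.34 to 5.17 in NT-3 tube (median 1.455), against 1.11 to 6.59 in lesion control (median 4.64). With that level as a covariate, 2 of the 4 calls remained, Olig1 (-0.97 ± 0.31, adjusted p = 0.0163) and Sox10 (-0.54 ± 0.18, adjusted p = 0.0195), while Nkx2-2 stood at -0.68 ± 0.26 (adjusted p = 0.0508) and Pdgfra at 0.14 ± 0.07 (adjusted p = 0.127). The Schwann cell level spanned 0.44 to 1.24 in NT-3 tube, against 0.13 to 1.85 in lesion control. The central myelin level spanned -3.57 to -2.19 in NT-3 tube, against -3.77 to -1.68 in lesion control. Of 16 central myelin genes 13 were called lower in NT-3 tube, where 2265 of all 11922 tested genes were. The neuron marker level spanned -4.12 to -1.88 in NT-3 tube, against -3.97 to -1.33 in lesion control, and 6 of 6 neuron markers were lower in NT-3 tube. The part of the Schwann cell, central myelin and neuron levels in the arm difference was not tested.

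Against normal cord the NT-3 tube arm at the lesion had the same directions, Pdgfra higher by 1.75 ± 0.08 and Olig1, Nkx2-2 and Sox10 lower, with differences of -3.95 ± 0.34, -3.61 ± 0.29 and -1.60 ± 0.20 (79.4% of genes called). Its Olig1 arrays spanned 6.83 to 10.17 with a median of 8.27, against 12.16 to 12.60 in normal cord, and its Nkx2-2 arrays spanned 4.78 to 8.08, against 9.63 to 9.98 in normal cord, in part below 6.55, where RMA compresses the difference.

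In the flanking segments NT-3 tube and lesion control were compared as averages over days. Rostrally none of the 4 members was called by limma at an adjusted p under 0.05 (3.04% of genes called), and 0 had an unadjusted p under 0.05, with differences of -0.05 to 0.02 and standard errors of 0.05 to 0.07. These averages hold single days, not tested, on which the groups did not overlap and the signs differed. On day 1 rostral Olig1 differed by -0.54, Pdgfra by 0.34 and Nkx2-2 by 0.38, and on day 3 Nkx2-2 by -0.31. Rostral Sox10 differed by -0.26 on day 20, by 0.17 on day 60 and by 0.18 on day 90, and Olig1 by 0.19 on day 30 and 0.16 on day 60. Caudally the groups were apart on day 20 for Pdgfra (0.52) and Olig1 (-0.25) and on day 3 for Nkx2-2 (-0.15). The share of all genes whose groups were apart on such days was not computed, so these days do not set the members apart. Days 1, 3 and 90 are also not among the days matched on RT1-CE10 (10, 20, 30 and 60 in both segments). Over all days caudally 10.2% of genes were called and Olig1 was lower (-0.18 ± 0.05, adjusted p = 0.0226), a call lost on the 4 matched days (-0.18 ± 0.07, adjusted p = 0.139) and without the arrays numbered 3 of NT-3 tube (-0.15, adjusted p = 0.104). Against normal cord all 4 members were called in both segments (65% of genes called rostrally and 65.2% caudally), with Olig1 lower (-0.79 ± 0.11 rostrally and -0.85 ± 0.11 caudally) and Pdgfra higher (0.46 ± 0.12 and 0.365 ± 0.11). The rostral call of Sox10 in that arm (-0.505 ± 0.13) was lost without the second normal array (-0.31, adjusted p = 0.0807).

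Tube alone was compared with lesion control in each segment. Rostrally Pdgfra was higher by 0.22 ± 0.06 (adjusted p = 0.00348) and Olig1 lower (-0.205 ± 0.055, adjusted p = 0.00385), where 30.5% of genes were called. The largest gap in Pdgfra was on day 60, with 12.17, 11.91 and 11.88 in tube alone, against 11.22, 11.07 and 11.36 in lesion control, groups that did not overlap. On that day RT1-CE10 averaged 10.42 in tube alone, against 7.38 in lesion control, so it is not among the matched days. On matched days Pdgfra differed by 0.16 ± 0.07 and no longer passed (adjusted p = 0.123). Fibroblast markers were higher in 9 of 10 cases and lower in 1 in that comparison, with a median of 0.61. The mean level of muscle markers lay -0.41 to 5.96 over normal cord in tube alone, against -0.70 to 1.75 in lesion control. The part of both lists in the Pdgfra difference was not tested.

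At the lesion on day 3, 7.1% of genes were called between tube alone and lesion control, and none of the 4 members was by limma at an adjusted p under 0.05, nor was any at an unadjusted p under 0.05 (0 of 4). Olig1 read 10.25, 10.15 and 10.66 in tube alone, against 10.67, 9.25 and 9.36 in lesion control, overlapping groups with a difference of 0.59 ± 0.45. Caudally Pdgfra was higher by 0.21 ± 0.06 in tube alone (adjusted p = 0.0178, 8.65% of genes called), and the other 3 did not pass. That call was lost without the arrays numbered 3 of tube alone (0.18, adjusted p = 0.129). Fibroblast markers were higher in 7 of 10 cases and lower in 1 there, with a median of 0.41, and their part was not tested.

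Against normal cord, tube alone had Pdgfra higher by 0.69 ± 0.12 rostrally and 0.50 ± 0.11 caudally, and differences below 0 for Olig1 (-0.95 ± 0.11 and -0.78 ± 0.11), Sox10 (-0.64 ± 0.13 and -0.54 ± 0.13) and Nkx2-2 (-0.56 ± 0.11 and -0.48 ± 0.11). All 4 passed in both segments, where 68.7% and 63.6% of genes did.

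Between NT-3 tube and tube alone, rostral Pdgfra was lower in NT-3 tube (-0.23 ± 0.06, adjusted p = 0.00366) and rostral Olig1 higher by 0.16 ± 0.06 (adjusted p = 0.0343), where 23.1% of genes were called. On the 5 matched days neither passed (-0.15 ± 0.07 and 0.125 ± 0.07). The Olig1 call was also lost without the arrays numbered 1 of NT-3 tube or those numbered 1 or 3 of tube alone (0.11 to 0.14, adjusted p from 0.105 to 0.227). At the lesion on day 3, Pdgfra read 12.75, 12.79 and 12.43 in NT-3 tube, against 12.25, 12.25 and 12.51 in tube alone, groups that overlap, with a difference of 0.32 ± 0.10 (adjusted p = 0.0208, 23.5% of genes called). That call was lost without the first or second array of either arm (0.25 to 0.28, adjusted p from 0.0764 to 0.142) and with only the 2 groups fitted (adjusted p = 0.118). Nkx2-2 read 8.08, 7.42 and 7.45 in NT-3 tube, against 8.44, 8.33 and 8.79 in tube alone, groups that did not overlap. The difference of -0.87 ± 0.38 did not pass (adjusted p = 0.0984), but did with only the 2 groups fitted (adjusted p = 0.0185). Caudally none of the 4 was called by limma at an adjusted p under 0.05 (3.93% of genes called), and 1, Pdgfra, had an unadjusted p under 0.05 (-0.13 ± 0.06).

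The members were also compared in pattern with all genes tested in all segments, by Pearson correlation of means over the 56 cord groups, which share arrays of normal cord and the split between lesion and flanking segments. For Pdgfra the 3 closest genes were Antxr2 (0.977), Flrt2 (0.970) and Uggt2 (0.964). For Olig1 they were Kndc1 (0.991), the myelin gene Mobp (0.986) and the GABA-synthesising enzyme Gad1 (0.984), the last a gene of neurons. For Nkx2-2 they were the myelin-associated protease Klk6 (0.977), Kndc1 (0.974) and Gad1 (0.972), and for Sox10 Pcbp4 (0.957), Rtkn (0.933) and Fhod3 (0.931). All 6 neuron markers tested fell at the lesion in lesion control over all days, with a median of -3.07. In that comparison 78.2% of all genes were called, and 4361 of 11922 were lower.

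Among the members Olig1 and Nkx2-2 ran together, at r = 0.98 over the 56 groups and r = 0.96 over the 13 lesion groups, but at 0.50 over the 21 rostral and 0.35 over the 21 caudal groups. Pdgfra ran opposite to Olig1 over all groups (-0.87) and over the lesion groups (-0.76), at -0.31 over the rostral groups, but not over the caudal groups (-0.01). Sox10 correlated with Olig1 at 0.30 over the lesion groups, against 0.70 rostrally and 0.51 caudally. These are descriptions over group means.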

How the data were processed

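RNA of each pool was hybridised to 1 Affymetrix rat expression array. Per the submitters' processing notes, the authors used Affymetrix Expression Console and RMA, without a version in those notes. The authors' values are log2 RMA, deposited for 31099 probe sets on 172 arrays, and were not normalized again. RMA equalises arrays and compresses low signals, and precision is bounded by how many arrays a group has. The annotation gives 1 symbol to 20832 probe sets, several to 436 and does not list 9831. Among probe sets of a gene the brightest on average over the 167 cord arrays was taken. A gene entered a fit if a group mean there was 6.55 or more, the 40th percentile over cord values.

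limma 3.58.1 (R 4.3.3) fitted each segment with normal cord, with 1 mean per arm and day, and p-values were adjusted by Benjamini-Hochberg over all genes tested. Segments were compared in 1 fit of all cord arrays, in which arrays of different segments count as independent. On simulated data 58 to 67% of 0.5 log2 changes were recovered in single-day comparisons and 95 to 98% in NT-3 tube against lesion control. The simulation changed a small part of the genes, equally on all days averaged, with the same normal noise in every group of a gene. In the data 39.9 to 77.1% of genes were called on single days of lesion control, so these rates need not hold there. Members and lists (152 entries, 135 matched) were chosen with earlier results of these data known. By rule the genes to name were all members, the called genes of each list with the largest change in lesion control over all days (up to 4 per segment), and the 3 genes most alike to each member, and of the list genes only some are described. Genes outside that rule, such as Cspg4, Pdgfa and RT1-CE10, were chosen after their values were seen. Alternatives were dropping the dim filter, quantile-normalizing again, weighting arrays, a replicate block, a robust prior with trend, averaging probe sets, fitting only the compared groups, matched days and single arrays left out. The muscle level as a covariate was chosen after seeing the data. Numbers were not taken as pairs, because the sources used here do not say whether they mark the same rats. Within segments, deviations of same-numbered arrays of different groups had a median correlation of 0.00958 rostrally, -0.00541 at the lesion and -0.00942 caudally. This compares different arms or days inside a segment and cannot test pairing across segments, which was not checked.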

Additional observations from a re-analysis of the deposited data

Results flagged for a closer look

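The segments of lesion control differed in the test of the difference itself. At the lesion against rostral cord Pdgfra differed by 1.07, Olig1 by -2.35, Sox10 by -0.49 and Nkx2-2 by -2.46, and against caudal cord by 1.28, -2.44, -0.60 and -2.43. Rostral minus caudal Pdgfra differed by 0.17. The universal reference RNA, which no comparison uses, had a Pdgfra mean of 11.88, above the normal cord mean of 10.96.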

How the results depend on the processing

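Of the results for single members, 168 of 168 kept direction and side of the threshold without the dim filter, with a trend and robust prior, with the mean of probe sets and with the replicate block. The filter and the prior cannot change a member's difference, nor can averaging, since each tested member has 1 probe set. Under these settings only standard errors and the adjustment could move, so the kept directions were fixed in advance. With the replicate block the calls of lesion control against normal cord remained 22 rostrally, 24 at the lesion and 18 caudally. None of the results reversed under any alternative run. The second quantile normalization lost 2 calls and moved the median of all genes by at most 0.0559, array weights added 11, and fitting only the compared groups lost 4 and added 2. For tube alone against lesion control, matched days gave 1 called member rostrally instead of 2, and array weights gave 2 caudally instead of 1. For NT-3 tube against tube alone rostrally, 1 instead of 2 members was called after a second quantile normalization and 0 on matched days. For NT-3 tube against lesion control, matched days gave 1 instead of 4 at the lesion and 0 instead of 1 caudally, and the muscle covariate gave 2 instead of 4 at the lesion. The causes were not tested. Matched days use fewer arrays, and at the lesion the differences of NT-3 tube from lesion control were also smaller on them. They were 0.05 instead of 0.20 for Pdgfra, -0.49 instead of -0.83 for Olig1, -0.29 instead of -0.71 for Nkx2-2 and -0.52 instead of -0.57 for Sox10. Leaving out single arrays, or the arrays of 1 number of an arm, took 97 refits. Of single-member results 1381 were kept, 47 lost and 12 added. Numbers of calls then ran from 20 to 23 rostrally, 22 to 24 at the lesion and 16 to 22 caudally for lesion control against normal cord by day. Called members ran from 1 to 2 for rostral NT-3 tube against tube alone, 1 to 3 for lesion days 60-90 against day 3, 0 to 1 for NT-3 tube against tube alone at the lesion, 1 to 2 for caudal day 3 against day 1, 0 to 1 for caudal NT-3 tube against lesion control, 0 to 2 for caudal tube alone against lesion control and 0 to 1 for rostral against caudal. Olig2 was too dim to be tested, and Gpr17 is not analysed here.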
